A study of Mus musculus with 14 samples.

Results

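Genes of the muscle stretch response were measured in mouse ventricles under pressure overload, in hearts given a virus that expresses JP2NT and in hearts given a control virus. The 9 genes were listed by name, out of 24972 names in the table of gene values. They were muscle ankyrin repeat genes (Ankrd1, Ankrd2 and Ankrd23), Xin repeat genes (Xirp1 and Xirp2) and LIM-domain genes (Fhl1 and Csrp3). The others were Nrap, a nebulin-related anchoring gene, and Enah, of the Ena/VASP family. All 9 passed the filter on low values and were among the 13209 genes tested. Ankrd2 passed it through the TAC hearts only, since no sham library reached the minimum of 10, so it had to differ between surgeries and its call is a description. Male C57BL/6N mice aged 9 to 10 weeks were operated on, either as sham controls or with a band that constricts the transverse aorta (TAC), against which the left ventricle has to pump at raised pressure. At 2 weeks after surgery, 30 TAC mice with an ejection fraction of 40 to 60% and 10 sham mice with normal function had been selected by echocardiography. They then received AAV2/9, a virus that infects heart muscle, into the tail vein, in 100 ul with 1e12 viral genomes. Its cargo was GFP or JP2NT, which is a fragment from the N-terminus of junctophilin-2. Ventricles were frozen 8 weeks after surgery. No promoter of the viral insert is named in the labels. The groups were Sham+GFP (3 libraries), TAC+GFP (4), Sham+JP2NT (3) and TAC+JP2NT (4), and all of them carried a virus.

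Muscle ankyrin repeat proteins sit on the elastic I-band of titin, the giant spring of the sarcomere, and can move to the nucleus, so they are regarded as carriers of stretch signals. Xin repeat proteins bind and bundle actin filaments where the last sarcomere meets the membrane of the intercalated disc, the junction between neighbouring cardiomyocytes. The LIM proteins encoded by Fhl1 and Csrp3 bind titin and Z-disc proteins and take part in hypertrophic signalling, and both genes are known from inherited muscle disease. Nrap ties the ends of forming myofibrils to the membrane, and Enah, also called Mena, promotes actin polymerisation at cell contacts.

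The gene-assigned reads per library were estimated at 8648934 to 14458886 from the value that a single read takes. The variance between Sham+JP2NT replicates 1 and 2 was 1.22 times that of counting alone, and 1.73 to 7.42 times in the other 17 pairs within groups. Their mean therefore entered the fit as 1 sample, so 13 samples were fitted, with n = 2 for Sham+JP2NT. Nothing in the labels ties each library to its own animal, so the p-values measure the spread between these samples, which may in part be technical. On the first principal component TAC+JP2NT replicate 4 lay at -5.57, the other TAC libraries at 20.2 to 42.9 and the sham samples at -42.1 to -38.9. Jph2, which encodes junctophilin-2, had a log2 difference of 0.04 between TAC+JP2NT and TAC+GFP (limma adjusted p = 0.715), and the labels do not say whether reads of the viral insert count as Jph2. All 8 ventricular cardiomyocyte markers were detected, and their summed value was 1036000 to 1072000 in Sham+GFP, 564600 to 673300 in TAC+GFP, 1020000 to 1041000 in Sham+JP2NT and 633400 to 838700 in TAC+JP2NT. Of these markers 5 fell under TAC with GFP, beside 24.9% of all genes, while Myl2, Myl3 and Tnnt2 were not called. Myh6, the gene of the alpha myosin heavy chain, fell most. It stood at 460500 to 493900 in Sham+GFP and at 144600 to 202300 in TAC+GFP, so the fall of the sum rests largely on it. Of 8 markers of skeletal muscle, Myh4 was listed at 0 in every library and Myh1, Myh2 and Actn3 stayed under a value of 10. Myl1, from the same list, stood at 442.6 to 544.9 in shams and rose 1.78-fold under TAC with GFP (limma adjusted p = 0.000205) and 1.85-fold with JP2NT (0.000968). It carried the sum of that list, which was 539.5 to 569.5 in Sham+GFP, 914.8 to 1062 in TAC+GFP, 473.1 to 521.9 in Sham+JP2NT and 710.5 to 1227 in TAC+JP2NT, and its part in the rise of the stretch genes was not tested. The summed value of the 5 atrial markers was 551.8 to 3793, 1713 to 5707, 4152 to 6752 and 1218 to 11610 in the same order of groups. In ventricular tissue, fewer cells of a type and less RNA per cell cannot be told apart.

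The positions are those of GENCODE M21 on mm10, the build named in the submitters' processing notes. Ankrd1 lies at chr19:36111961-36120099 on the minus strand, Ankrd2 at chr19:42036000-42045110 on the plus strand and Ankrd23 at chr1:36530188-36536883 on the minus strand. Each of these ankyrin repeat genes has 9 exons in its longest coding transcript. Xirp1 lies at chr9:120013755-120023598 on the minus strand with 3 exons, and Xirp2 at chr2:67446002-67526614 on the plus strand with 9. Fhl1 lies at chrX:56731787-56793346 on the plus strand with 8 exons, and Csrp3 at chr7:48830398-48848033 on the minus strand with 6. Nrap spans chr19:56320035-56390037 on the minus strand with 42 exons, and Enah chr1:181896384-182019990 on the minus strand with 14. The span of Xirp1 overlaps Cx3cr1 on the same strand, whose values were 33.65 to 100.2, and Nrap overlaps Habp2 on the opposite strand, which was listed at 0 in every library. Ankrd23 shares its strand and part of its span with Gm42417, Fhl1 with the small RNA gene Gm23258 and Enah with 4 gene models of uncertain coding status. Only whole spans were compared and not exons, so whether reads are shared is not known.

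All 9 genes were higher in overloaded hearts, so DNA before their start sites is shown for the members in which motifs of muscle and stress factors, other than a TATA box alone, were matched. RefSeq windows on GRCm38.p6, the assembly behind mm10, were found for 8 of the 9 members, with 11 start sites in all, and the 250 bases before each start were searched on both strands. The motifs were the M-CAT element CATTCC of TEAD factors, the AP-1 site TGACTCA or TGAGTCA, the CArG box of SRF, the MEF2 site, the GATA motif AGATAA, and the TATA box as TATAAA or TATATA. Capitals mark every match in the window, or the M-CAT match for Ankrd1, and the sequences run 5′ to 3′ on the strand of the gene. All 250 bases of the Ankrd1 window are exon in at least 1 GENCODE transcript, so only 30 bases around each M-CAT match are shown, and 87 bases of the Fhl1 window are exonic.
Ankrd1, chr19:36120037-36120066, minus strand: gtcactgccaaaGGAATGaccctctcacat
Ankrd1, chr19:36119950-36119979, minus strand: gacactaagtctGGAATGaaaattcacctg
Ankrd23, chr1:36535740-36535989, minus strand: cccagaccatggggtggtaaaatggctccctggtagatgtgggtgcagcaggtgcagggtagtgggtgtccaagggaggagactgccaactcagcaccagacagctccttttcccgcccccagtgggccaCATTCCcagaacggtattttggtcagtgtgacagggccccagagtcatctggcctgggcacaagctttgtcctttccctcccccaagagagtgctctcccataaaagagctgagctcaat
Xirp2, chr2:67445752-67446001, plus strand: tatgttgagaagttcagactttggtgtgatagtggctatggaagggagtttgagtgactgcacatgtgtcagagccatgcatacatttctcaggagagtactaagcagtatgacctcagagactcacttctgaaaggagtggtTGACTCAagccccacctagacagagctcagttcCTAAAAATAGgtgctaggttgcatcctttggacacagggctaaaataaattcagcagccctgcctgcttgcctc
Fhl1, chrX:56779433-56779682, plus strand: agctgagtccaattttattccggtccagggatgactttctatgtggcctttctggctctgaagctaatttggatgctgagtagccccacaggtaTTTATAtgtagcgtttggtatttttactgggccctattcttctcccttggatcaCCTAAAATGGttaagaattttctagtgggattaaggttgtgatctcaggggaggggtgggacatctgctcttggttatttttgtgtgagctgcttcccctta
In the Ankrd1 window the M-CAT element was matched at 210 to 205 and at 123 to 118 bases before the start, both on the opposite strand, with a GATA motif at 47 to 42 and a TATA box at 27 to 22. Ankrd23 held 1 M-CAT element, at 120 to 115 bases before the start shown, and a GATA motif before its other start. Xirp2 was the member with an AP-1 site, at 107 to 101, and with a MEF2 site, at 74 to 65. Fhl1 was the member with a CArG box, at 102 to 93, and it also held a TATA box on the opposite strand. Among all 32851 windows of this length, 12.6% held an M-CAT element, 4.46% an AP-1 site, 1.47% a CArG box, 2.92% a MEF2 site, 9.99% a GATA motif and 15.6% a TATA box. A TATA box was also matched in Ankrd2 and at 1 of the start sites of Csrp3, and no motif of the set was matched before Nrap or Enah. The AP-1, MEF2 and CArG matches were found on both strands at the same place, and no match overlapped one of another motif.

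The first comparison asks what overload did under the control virus. All 9 genes rose in TAC+GFP against Sham+GFP, by 1.42-fold for Nrap to 9.35-fold for Ankrd2, and in all 9 the TAC libraries lay above every sham library (plot of values by library). Of all genes tested, 48.1% were called, 23.3% higher and 24.9% lower, and in 25.3% the TAC+GFP libraries lay wholly above. Leaving aside Ankrd2, which had to differ, at least 2-fold rises were called in 5 of the 8 other members and in 6.15% of all genes. The median log2 difference was 1.73 over the members, Ankrd2 included, and -0.01 over all genes. Values are the deposited scaled gene values, rescaled jointly over the libraries, and group means are given with the SD. Calls rest on limma, with p-values adjusted by Benjamini-Hochberg over all tested genes and a threshold of 0.05.

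**Figure D1:**
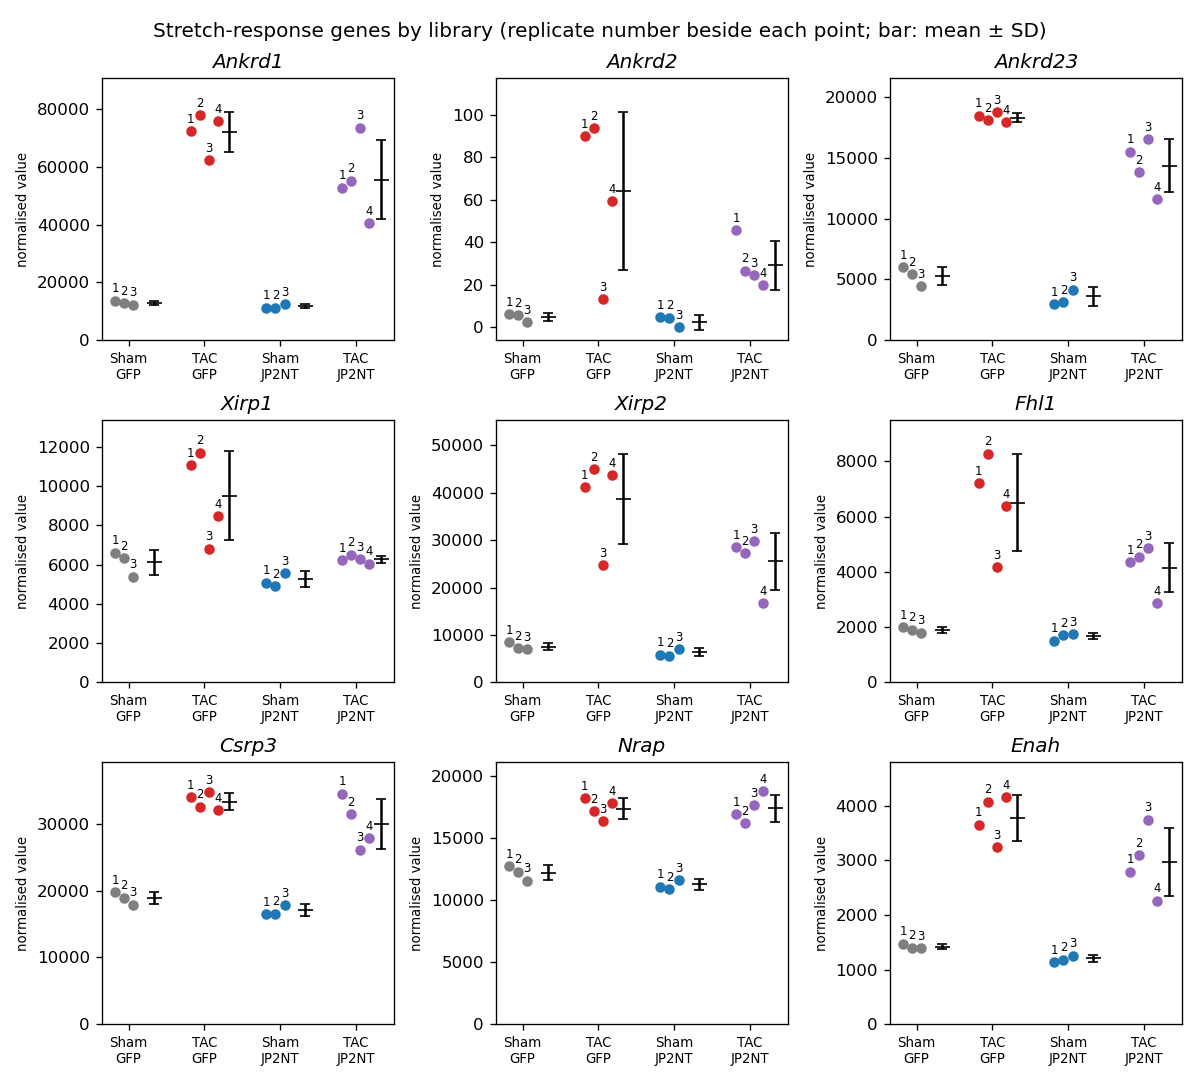
Normalised value of each of the 9 genes (vertical axes, starting at or just below 0) in every library of the 4 groups, with the replicate number above each point and the mean with its SD as a bar at the right of each group (n = 3, 4, 2 and 4, with Sham+JP2NT replicates 1 and 2 averaged). All TAC+GFP points lie above all Sham+GFP points in each panel, and Xirp1 is the panel in which the TAC+JP2NT points stay close to the shams.

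Ankrd1, the cardiac ankyrin repeat protein gene, stood at 13770, 12910 and 12320 in Sham+GFP replicates 1 to 3. In TAC+GFP it reached 72120, 77640, 62200 and 75740. Its 3 Sham+JP2NT libraries gave 11330, 11250 and 12460, and the 4 TAC+JP2NT libraries 52710, 55150, 73430 and 40410. The shams of both viruses formed a narrow band far below all TAC libraries, and TAC+JP2NT replicate 3 lay within the range of TAC+GFP. The mean went from 13000 ± 733 (SD, n = 3) to 71930 ± 6880 (n = 4), a 5.52-fold rise under GFP (log2 difference 2.46, SE 0.148; limma adjusted p = 6.82e-08). Ankrd23, whose product also binds titin, had Sham+GFP values of 5989, 5431 and 4476 and TAC+GFP values of 18440, 18070, 18750 and 17920. The latter were the tightest of any member, with a coefficient of variation of 2.04%. Under JP2NT it stood at 2974, 3112 and 4178 in sham and at 15480, 13830, 16500 and 11610 in TAC hearts. Its rise under GFP was 3.48-fold (log2 difference 1.80, SE 0.128; limma adjusted p = 2.13e-07).

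Ankrd2, the ankyrin repeat gene known mainly from slow skeletal muscle, was near the limit of detection in sham hearts. It gave 6.15, 5.88 and 2.57 in Sham+GFP, where a value of about 1 corresponds to a single read. TAC+GFP values were 89.92, 93.84, 13.41 and 59.4, with replicate 3 far below the others. In Sham+JP2NT it stood at 4.8 and 4.56 and was listed at 0 in replicate 3, and TAC+JP2NT gave 45.7, 26.77, 24.6 and 19.79. Its 9.35-fold rise had the largest error of the members (log2 difference 3.22, SE 0.646; limma adjusted p = 0.000897), and with 10 in place of 1 added before the logarithm the log2 difference was 2.12, since low values weigh on it. Without TAC+GFP replicate 3 it was 3.84.

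Of the Xin repeat genes Xirp2 moved steeply and Xirp1 little. Xirp2 had Sham+GFP values of 8499, 7229 and 6956 and TAC+GFP values of 41190, 45010, 24700 and 43750. In the JP2NT hearts it stood at 5825, 5650 and 6954 after sham surgery and at 28460, 27310, 29800 and 16670 after TAC. Replicate 3 was the low library of TAC+GFP, below 3 of the 4 TAC+JP2NT libraries, and replicate 4 that of TAC+JP2NT. The rise under GFP was 4.99-fold (log2 difference 2.32, SE 0.211; limma adjusted p = 1.47e-06). Xirp1 gave 6611, 6343 and 5379 in Sham+GFP and 11050, 11700, 6817 and 8478 in TAC+GFP. TAC+GFP replicate 3 was only slightly above the highest sham. In Sham+JP2NT it stood at 5075, 4905 and 5556, and in TAC+JP2NT at 6230, 6502, 6270 and 6038, a band within the range of Sham+GFP. The rise under GFP was 1.53-fold (log2 difference 0.61, SE 0.143; limma adjusted p = 0.0028).

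Among the LIM genes, Fhl1 had Sham+GFP values of 2011, 1910 and 1799 and TAC+GFP values of 7209, 8281, 4170 and 6377. With JP2NT it stood at 1513, 1719 and 1755 in sham and at 4361, 4546, 4849 and 2869 in TAC hearts. TAC+GFP replicate 3 fell within the TAC+JP2NT range, and the other 3 TAC+GFP libraries lay above all TAC+JP2NT libraries. It rose 3.31-fold under GFP (log2 difference 1.73, SE 0.197; limma adjusted p = 9.37e-06). Csrp3, the muscle LIM protein gene, gave 19750, 18930 and 17890 in Sham+GFP and 33990, 32550, 34660 and 31970 in TAC+GFP. Its Sham+JP2NT values were 16460, 16550 and 17770 and its TAC+JP2NT values 34460, 31420, 26080 and 27860. The TAC groups overlapped, and the low libraries under JP2NT were replicates 3 and 4. The rise under GFP was 1.77-fold (log2 difference 0.82, SE 0.0906; limma adjusted p = 7.12e-06).

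Nrap was the least altered member under GFP and Enah was intermediate. Nrap gave 12770, 12310 and 11570 in Sham+GFP, 18240, 17160, 16350 and 17800 in TAC+GFP, 11100, 10870 and 11610 in Sham+JP2NT and 16910, 16220, 17680 and 18790 in TAC+JP2NT. Its TAC groups covered the same range, and TAC+JP2NT replicate 4, the lowest library of most other members, was the highest here. The rise under GFP was 1.42-fold (log2 difference 0.51, SE 0.0705; limma adjusted p = 4.68e-05). Enah had Sham+GFP values of 1476, 1402 and 1394 and TAC+GFP values of 3654, 4073, 3245 and 4157. In Sham+JP2NT it stood at 1140, 1185 and 1254 and in TAC+JP2NT at 2792, 3093, 3742 and 2261. All JP2NT shams lay below all GFP shams, and the TAC groups overlapped through TAC+JP2NT replicate 3. Enah rose 2.64-fold under GFP (log2 difference 1.40, SE 0.129; limma adjusted p = 1.66e-06).

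Levels of different genes can be set side by side only per transcript length, and were divided by the longest coding transcript in GENCODE M21, 899 bases for Csrp3 to 11979 for Xirp2. On this scale of normalised value per kilobase, Csrp3 was highest in Sham+GFP at 21000, followed by Ankrd1 at 6440, Ankrd23 at 2330, Nrap at 2220, Xirp1 at 1050, Fhl1 at 688, Xirp2 at 631, Enah at 127 and Ankrd2 at 4.28. The libraries of Ankrd23 and Nrap overlapped in this order, as did those of Fhl1 and Xirp2. In TAC+GFP Ankrd1, at 35600 per kilobase, overlapped with Csrp3 at 37000, and Xirp2, at 3230, stood level with Nrap at 3160. Fhl1 at 2350 and Xirp1 at 1630 followed, each with libraries that overlapped those of its neighbours above. In TAC+JP2NT the same pair led, Csrp3 at 33300 and Ankrd1 at 27400, again with overlap. Ankrd2 was the lowest member in all 4 groups, at 56.4 per kilobase in TAC+GFP and 25.7 in TAC+JP2NT. The labels do not name the transcript set that was counted, and other transcript lengths would shift this order.

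**Figure D2:**
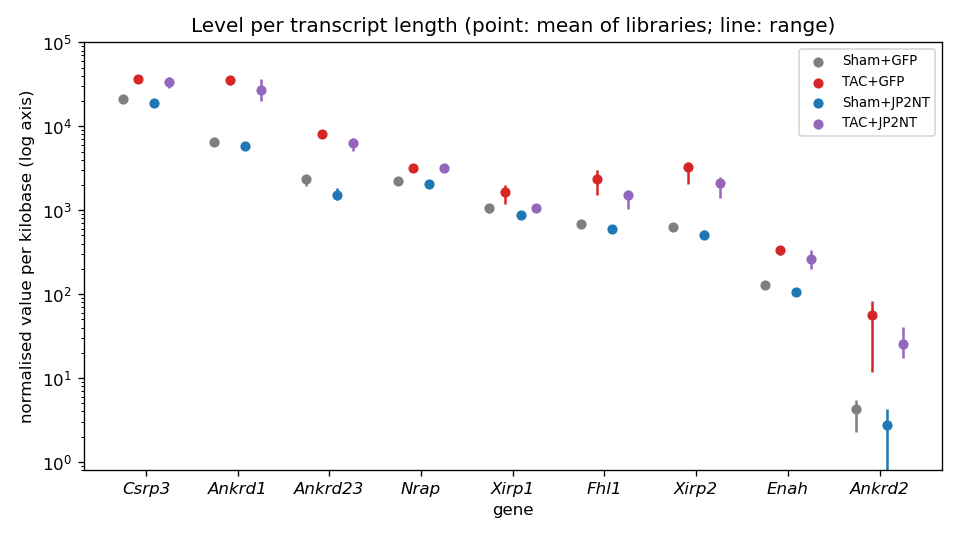
Normalised value per kilobase of the longest coding transcript (log axis) of the 9 genes, ordered by their level in Sham+GFP; points are means over the libraries of a group and lines run from the lowest to the highest library. Csrp3 and Ankrd1 lead in every group, and the Ankrd2 line of Sham+JP2NT runs off the axis because 1 library was listed at 0.

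Overload under JP2NT, TAC+JP2NT against Sham+JP2NT, raised 8 of the 9 genes, where 31.9% of all genes were called, 16.1% higher and 15.8% lower. Ankrd2 is among these 8, and since it had to differ its call is again a description. At least 2-fold rises were called in 5 of the 8 members other than Ankrd2 and in 3.32% of all genes. The median log2 difference was 1.28 over the members, Ankrd2 included. In all 9, Ankrd2 included, the TAC libraries lay above the shams, as they did in 24.5% of all genes. Ankrd1 rose 4.57-fold (limma adjusted p = 2.87e-06), Ankrd23 3.99-fold (limma adjusted p = 2.14e-06) and Xirp2 3.95-fold (limma adjusted p = 8.14e-05). Fhl1 and Enah rose 2.42-fold each, Csrp3 1.74-fold and Nrap 1.54-fold. Ankrd2 rose 12.1-fold from 2.34 ± 3.31 (n = 2) to 29.21 ± 11.4 (n = 4), a fold that rests on a sham library listed at 0. Without Sham+JP2NT replicate 3 its log2 difference was 2.33 and was not called (limma adjusted p = 0.0704), a fit in which the lone remaining sham sample is taken to vary like the other groups. Xirp1 was the member not called: its mean was 5273 ± 400 (n = 2) in sham and 6260 ± 191 (n = 4) in TAC hearts, a ratio of 1.19 (95% interval 0.934 to 1.51; limma adjusted p = 0.264).

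Whether the response to TAC differed between the viruses was tested as an interaction, which was called for 0 of the 9 members and for 0.0757% of all genes (limma). At an unadjusted p under 0.05 the interaction counted 0 members and 1506 genes. The difference in response was -0.36 for Xirp1 (log2; 95% interval -0.825 to 0.101; limma adjusted p = 0.555), -0.45 for Fhl1 (-1.09 to 0.182; limma adjusted p = 0.601) and 0.11 for Nrap (-0.115 to 0.34; limma adjusted p = 0.743). Xirp1 thus passed the test under GFP and not under JP2NT without a detectable difference between those responses. For Ankrd1 the difference in response was -0.27 (-0.751 to 0.206; limma adjusted p = 0.695). The plot of overload against sham shows each response with its interval under each virus.

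**Figure D3:**
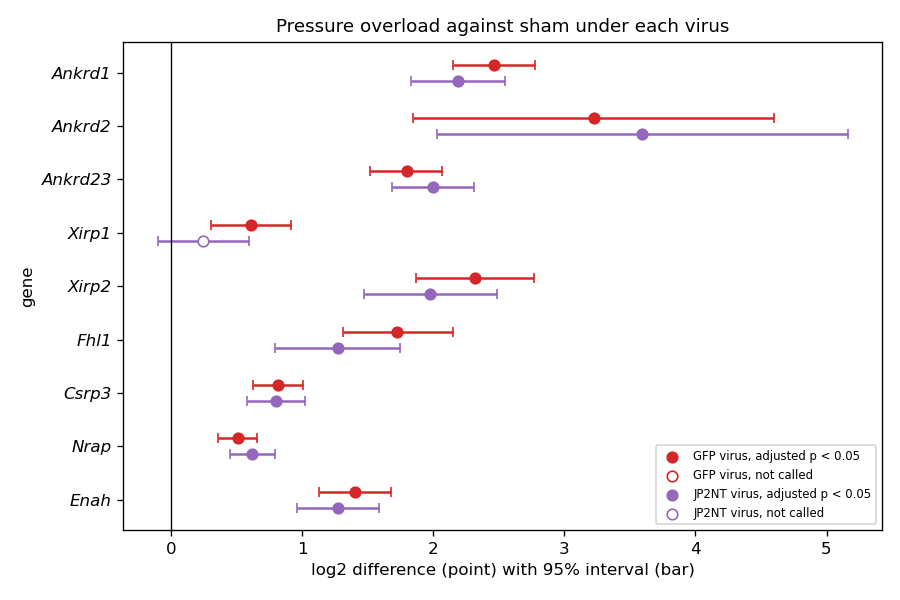
Log2 difference of TAC from sham hearts (horizontal axis) with its 95% interval under the GFP virus (TAC+GFP against Sham+GFP) and the JP2NT virus (TAC+JP2NT against Sham+JP2NT); filled points passed an adjusted p under 0.05. The intervals of the viruses overlap for every gene, and Xirp1 under JP2NT is the open point.

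The comparison of the viruses in overloaded hearts asks what JP2NT altered after TAC. It shares the TAC+GFP libraries with the first comparison and the TAC+JP2NT libraries with that under JP2NT. Xirp1 was the 1 member of 9 that was called: it was 1.49-fold lower in TAC+JP2NT, at 6260 ± 191 against 9513 ± 2270 (n = 4 each; log2 difference -0.57, SE 0.133; limma adjusted p = 0.0225), and all 4 of its TAC+JP2NT libraries lay below all TAC+GFP libraries. Of all genes 6.15% were called, 2.75% higher and 3.4% lower. The Xirp1 call was lost without TAC+GFP replicate 1 (limma adjusted p = 0.0738) or replicate 2 (0.0768), with the TAC groups alone in the fit (0.0831), and with replicates 1 and 2 of both TAC groups averaged (0.123).

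The means of 7 other members were also lower in TAC+JP2NT without passing the test. At an unadjusted p under 0.05 the comparison counted 6 of the 9 members and 2961 of the 13209 genes. Fhl1 stood at 4156 ± 882 against 6509 ± 1740 (log2 difference -0.63, 95% interval -1.02 to -0.242; limma adjusted p = 0.0549). Xirp2 stood at 25560 ± 6010 against 38660 ± 9450 (log2 difference -0.59, -1.01 to -0.178; limma adjusted p = 0.0838). For Ankrd1 the means were 55420 ± 13600 and 71930 ± 6880 (log2 difference -0.40, -0.696 to -0.11; limma adjusted p = 0.0926). Ankrd23 and Enah differed by -0.36 each (limma adjusted p = 0.0829 and 0.0841), and Ankrd23 was, beside Xirp1, the member whose TAC groups did not overlap, as in 5.41% of all genes in this direction. Csrp3 differed by -0.16 (-0.339 to 0.0191; limma adjusted p = 0.28) and Ankrd2 by -0.86 (-2.14 to 0.416; limma adjusted p = 0.431), or by -1.48 without TAC+GFP replicate 3 (limma adjusted p = 0.0914). Nrap did not share this direction: its means were 17400 ± 1100 and 17390 ± 825, and the 95% interval of the log2 difference, -0.139 to 0.14, did not reach the difference of Xirp1. Over the members the median log2 difference was -0.40, over all genes 0.0006.

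**Figure D4:**
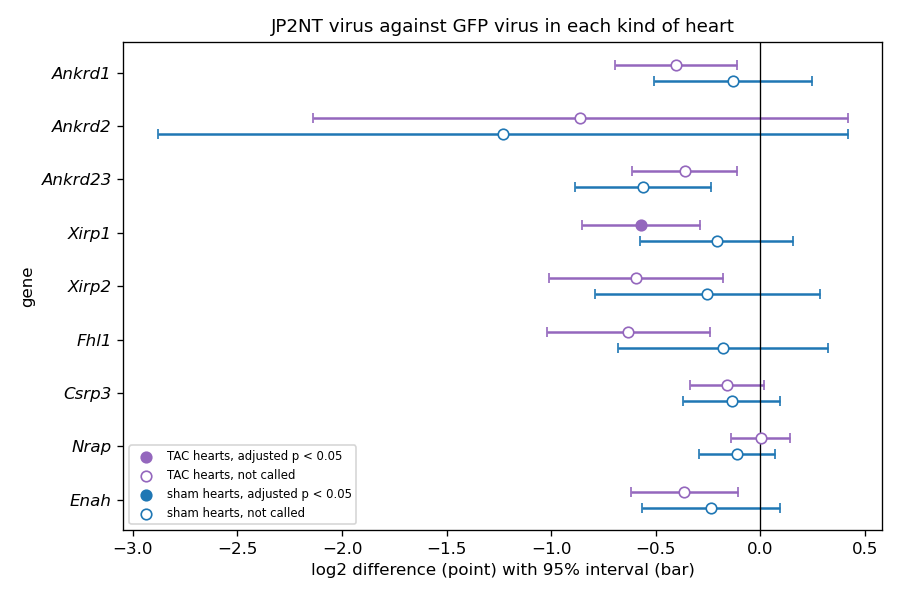
Log2 difference of the JP2NT from the GFP virus (horizontal axis) with its 95% interval in TAC hearts (TAC+JP2NT against TAC+GFP) and in sham hearts (Sham+JP2NT against Sham+GFP); filled points passed an adjusted p under 0.05. Xirp1 in TAC hearts is the filled point, and Nrap in TAC hearts lies at 0.

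This count of calls depended on scaling and on single libraries. The factors by which the deposited values had to be scaled to a common level were 1.02 to 1.03 in the 7 GFP libraries and 0.970 to 0.976 in the 7 JP2NT libraries. How the authors scaled the table is not stated. Taken as deposited, the values gave 6 members called lower (Ankrd1, Ankrd23, Xirp1, Xirp2, Fhl1 and Enah), and the median of all genes was then -0.08, against 0.0006 after joint scaling. Without TAC+GFP replicate 3 there were 4 (Xirp1, Xirp2, Fhl1 and Enah) and without TAC+JP2NT replicate 3 there were 5 (Ankrd1, Ankrd23, Xirp1, Fhl1 and Enah). With both TAC+GFP replicate 3 and TAC+JP2NT replicate 4 left out there were 3 (Xirp1, Xirp2 and Fhl1). Without TAC+GFP replicate 1 or 2 there were 0.

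TAC+GFP replicate 3 held the lowest value of its group for 7 of the 9 members and the highest for the other two, Ankrd23 and Csrp3. Between its highest and lowest library, TAC+GFP spanned 7-fold for Ankrd2, 1.99-fold for Fhl1, 1.82-fold for Xirp2 and 1.72-fold for Xirp1, but 1.05-fold for Ankrd23 and 1.08-fold for Csrp3. In TAC+JP2NT, replicate 4 was lowest for 7 members and replicate 3 highest for 5. Here Ankrd1 spanned 1.82-fold, Xirp2 1.79-fold and Fhl1 1.69-fold, and Xirp1 only 1.08-fold. Other measures of these libraries moved as well. The share of Myh6, the alpha myosin heavy chain of the adult heart, was 3.07% in TAC+JP2NT replicate 4, while its group mates had 1.76 to 2.19%. In TAC+GFP replicate 3 it was 1.86%, against 1.32 to 1.54% in replicates 1, 2 and 4. Summed over 5 markers of activated fibroblasts, TAC+JP2NT replicate 4 reached 2109 and its group mates 3932 to 5869. TAC+GFP replicate 3 reached 6285 within a group range of 5837 to 10280. All 5 of these markers rose under TAC with GFP, where 23.3% of all genes were called higher. In TAC hearts 3 of the 5 were lower with JP2NT, as were 3.4% of all genes. The sum of the 5 was 817.8 to 888.4 in the shams, where Cthrc1 stayed under 10. Cthrc1 thus passed the filter through the TAC hearts only, so its place in both counts is a description. The sum of 4 erythroid markers was 6731 to 8488 in Sham+GFP and 15610 to 21720 in TAC+GFP, 8635 to 9621 in Sham+JP2NT and 7711 to 18350 in TAC+JP2NT, and Hba-a1, a haemoglobin gene, rose 2.27-fold under TAC with GFP (limma adjusted p = 0.000732). The sum of 5 smooth muscle markers was 4358 to 4611, 2670 to 3172, 4130 to 4247 and 2676 to 3516 in the same order. Of these 5 markers, 3 fell under TAC with GFP, beside 24.9% of all genes. The part of all these markers in the values of the stretch genes was not tested.

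**Figure D5:**
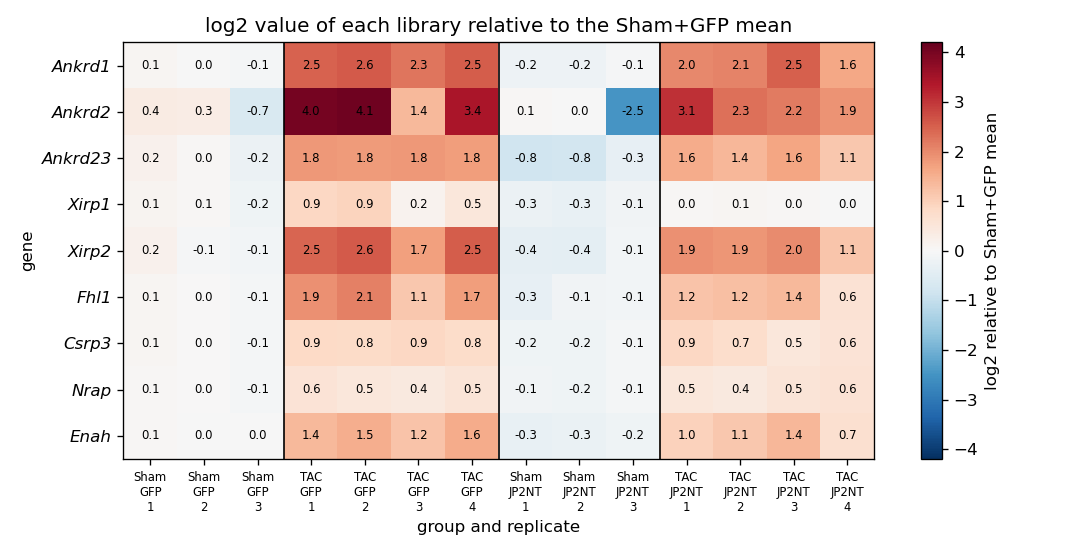
Log2 value of each gene (rows) in each of the 14 libraries (columns, by group and replicate number) relative to the mean of Sham+GFP; red is higher and blue lower. TAC+GFP replicate 3 and TAC+JP2NT replicate 4 are paler than their groups in most rows, while Nrap and Csrp3 stay even across TAC+GFP.

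In sham hearts JP2NT against GFP gave 0 of 9 members called and 0% of all genes (limma); at an unadjusted p under 0.05 there were 581 genes, 1 of them a member. That member was Ankrd23, at 3611 ± 803 (n = 2) with JP2NT and 5299 ± 765 (n = 3) with GFP, a log2 difference of -0.56 (95% interval -0.887 to -0.235; limma adjusted p = 0.998). The Sham+JP2NT samples lay wholly below Sham+GFP in 5 members (Ankrd23, Xirp2, Fhl1, Csrp3 and Enah), as in 17.7% of all genes, and all 9 mean differences were below 0, from -0.11 for Nrap to -1.23 for Ankrd2. The Ankrd23 interval excluded 0 on its own, and the difference did not pass the adjustment over all genes.

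Genes with the most similar course were sought by the root mean square difference of log2 values, each taken relative to its Sham+GFP mean, over the 13 samples. Synpo2l, which encodes a Z-disc protein of the synaptopodin family, was nearest to both Ankrd1 (0.209) and Xirp2 (0.228), and these members were 0.266 from each other. Adamtsl2, a matrix protein gene, was the next for Ankrd1 (0.216) and Rcan1, a calcineurin regulator, the next for Xirp2 (0.259). Ankrd23 was nearest to Tnfrsf12a, the receptor of the cytokine TWEAK (0.138), and to Mfap5 (0.185). Fhl1 was nearest to Tgfb2 (0.176), Enah to Clic5 (0.0893) and Ppp1r3c (0.136), and the low Ankrd2 to Egr2, an early growth response factor (0.508), and Col9a2 (0.83). Itpkc (0.111) and Ero1l (0.112) were nearest to Xirp1, Vps29 (0.0772) and N4bp2l2 (0.0881) to Csrp3, and Lrrc2 (0.0739) and Golga1 (0.0927) to Nrap. The nearest other member to Xirp1 was Nrap, at 0.319, which ranked 1189 among all genes by this distance. The distance counts the size of a rise, so members with unlike rises lie far apart even where their libraries move in parallel. Whether the members share a course apart from the size of their rise was not tested.

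Other genes of the stretch machinery were taken from lists chosen with earlier results of these data known. Under GFP their counts stand beside 23.3% of all genes called higher and 24.9% lower, and after TAC between the viruses beside 2.75% and 3.4%. Of 15 titin and Z-disc partner genes, 5 rose and 5 fell in TAC+GFP against Sham+GFP (median log2 difference -0.03, against -0.01 over all genes). Those that rose most were Myot, the Z-disc protein myotilin, at 1.57-fold, titin itself, encoded by Ttn, at 1.47-fold, and the desmin gene Des at 1.4-fold. In TAC hearts Des was 1.49-fold lower with JP2NT (limma adjusted p = 0.00375) and Smyd2, a methyltransferase that binds titin's I-band complex, 1.19-fold lower (limma adjusted p = 0.0374). Of 13 other LIM-domain genes 7 rose and 2 fell, with Csrp2 at 2.17-fold, Pdlim3 at 1.93-fold and Pdlim1 at 1.43-fold. Lmcd1 and Pdlim3 were 1.5-fold and 1.45-fold lower with JP2NT after TAC (limma adjusted p = 0.0113 and 0.0163). Of 10 genes of the Ena/VASP, nebulin and zyxin families 4 rose and 0 fell. They included Neb, nebulin, at 5-fold, from 39.28 ± 8.24 (n = 3) in Sham+GFP to 224 ± 144 (n = 4) in TAC+GFP, where its spread was wide. The focal adhesion genes Tes and Zyx rose 3.58-fold and 1.96-fold. With JP2NT after TAC, Tes and Zyx were 1.84-fold and 1.42-fold lower (limma adjusted p = 0.038 and 0.00654).

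Of 10 partners of the intercalated disc 3 rose and 3 fell, near the 23.3% and 24.9% of all genes, against which the counts that follow also stand. Pkp2 rose 1.32-fold and Ctnna3 1.25-fold, while Gja1, connexin 43, fell 1.46-fold. Of 17 genes of the YAP and TEAD pathway 7 rose and 1 fell under GFP. Ctgf and Cyr61, secreted matricellular proteins and targets of YAP, rose 13.5-fold and 2.26-fold, and with JP2NT after TAC they were 2.77-fold and 2.01-fold lower (limma adjusted p = 0.00114 and 0.0411). Of 10 genes of the SRF and MRTF pathway 1 rose and 1 fell: skeletal actin, Acta1, rose 5.21-fold and smooth muscle actin, Acta2, fell 2.04-fold. Of 3 MEF2 factor genes tested Mef2c rose 1.16-fold and Mef2d fell 1.53-fold. Of 12 stretch-gated channel and integrin sensor genes 2 rose and 2 fell. Piezo2, a mechanically gated channel, rose 5.31-fold, and the laminin receptor gene Itga7 fell 1.6-fold. The Piezo2 means were low, 6.961 ± 4.3 (n = 3) in Sham+GFP and 37.04 ± 12.8 (n = 4) in TAC+GFP, so its fold rests on few reads. Of 11 MAPK and calcineurin genes 1 rose, Rcan1 at 4.01-fold, and 2 fell. In the comparison of viruses after TAC, 0 of the intercalated disc, SRF and MRTF, MEF2, or MAPK and calcineurin genes were called by limma.

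Under JP2NT, TAC against sham called 16.1% of all genes higher and 15.8% lower. Of the 15 titin and Z-disc partners 3 rose and 2 fell, with Myot at 2.28-fold and Flnc, filamin C, at 1.57-fold. Of the 13 other LIM-domain genes 4 rose and 1 fell, and of the 10 genes of the Ena/VASP, nebulin and zyxin families 5 rose and 0 fell. Of the 10 intercalated disc partners 0 rose and 2 fell, namely Ctnna1, an alpha-catenin gene, by a factor of 1.32 and Tjp1, a junction scaffold gene, by a factor of 1.24. Of the 17 genes of the YAP and TEAD pathway 3 rose and 1 fell, with Ctgf at 4.57-fold and Tead1, a TEAD factor, at 1.46-fold. Of the 10 SRF and MRTF genes 2 rose and 1 fell, with Acta1 at 9.64-fold. Of the 3 MEF2 factors 0 rose and 1 fell, of the 12 channel and integrin genes 0 rose and 1 fell, and of the 11 MAPK and calcineurin genes 2 rose and 2 fell, with Rcan1 at 3.58-fold.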

How the data were processed

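RNA from ventricles was sequenced as stranded, paired-end, polyA-selected libraries, 14 in 4 groups taken from the sample titles. Per the submitters' processing notes, FastQC 1.0.0, STAR 2.6.1a, Salmon and the build mm10 were used. Neither a Salmon version nor the annotation and the scaling method could be read from these notes or the labels. The authors deposited 1 table of scaled gene values, a signal whose overall level differs between the GFP and the JP2NT libraries. The values are scaled and not whole, so no count test was run. Divided by the value of a single read, 1.11 to 2.8% of those above 0 were whole numbers within 0.001. That single-read value was itself rounded, which limits this share.

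Of 24972 gene names, 18188 were above 0 in a library, 4 lines with 2 duplicated names were left out, and 13209 genes that reached 10 in 3 or more samples were tested. All libraries were rescaled jointly by unweighted trimmed means of log ratios (30% of ratios, 5% of levels trimmed). limma 3.58.1 (R 4.3.3) was fitted to log2(value + 1) over all 4 groups, with 9 residual degrees of freedom, and was tested on simulated data. Fold changes are on that scale, which understates low genes. Members, gene lists and markers were chosen with earlier results of these data known, and motifs after the data were seen. Named were all members, Jph2, up to 3 called genes per list and comparison with the largest change, and the 2 genes and the member nearest to each member. Some genes that this rule names are not reported here. Other scalings, pseudocounts, filters, spreads, groupings, a replicate block and the leaving out of each library were tried as alternatives. Intervals are 95% intervals.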

Additional observations from a re-analysis of the deposited data

How the results depend on the processing

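All 9 members were called higher in TAC+GFP against Sham+GFP under all 26 alternatives. In TAC+JP2NT against Sham+JP2NT all but Xirp1, 8 members, were called in every alternative that kept more than 1 Sham+JP2NT sample. Both counts include Ankrd2, which had to differ between surgeries, so its calls are a description. Between the viruses in sham hearts and in the interaction, which had 25 alternatives, 0 were called (limma). For TAC+JP2NT against TAC+GFP the count of 1 became 6 with values as deposited, 2 with 14 separate libraries, 3 with TAC+GFP replicate 3 and TAC+JP2NT replicate 4 both left out (chosen after seeing the data), 0 with replicates 1 and 2 of both TAC groups averaged, 0 with only the compared groups, and 0 to 5 when a library was left out; the cause was not tested. The genes called there numbered 812, and 1416 as deposited, 158 with averaging, 167 with only the compared groups, 412 with a spread per group and as few as 269 without a library (TAC+GFP replicate 2). TAC+JP2NT against Sham+JP2NT called 4220 genes, and 1898 without Sham+JP2NT replicate 3, which leaves 1 sham sample. The interaction called 10 genes, and 0 to 127 over the alternatives.

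Signs changed only near 0 or for the low Ankrd2. Nrap between the TAC groups (log2 difference 0.0003) was -0.0803 as deposited, -0.0638 with both libraries left out and -0.0417 to 0.0323 when a library was left out. Ankrd2 between the shams was -1.553 to 0.0304 when a library was left out. Its interaction (0.37) was -0.46 with 10 added before the logarithm, -0.0461 with 14 libraries, -0.0915 with both left out and -0.89 to 0.69 when 1 was. The interaction of Csrp3 (-0.02) was 0.0279 with both left out and -0.104 to 0.0316 when 1 was.

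No pairing by replicate number was seen over 19 pairs of the same number in different groups. Their deviations from the group means correlated at -0.171 to 0.0763, 0 of them over 0.1, and 1 of 14 libraries correlated best with its own number. Deviations within such small groups depend on each other, so a weak pairing could be missed. With the replicate block and 14 libraries, 2 members were called between the TAC groups, as with 14 libraries and no block, and the Ankrd2 interaction was -0.0461. Ankrd2 in shams rests on a few reads, which limits its fold, and 2 samples limit every comparison with Sham+JP2NT.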

Other observations

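Early response genes shared a low library within TAC+GFP. Egr2, the gene nearest in course to Ankrd2, stood there at 93.47, 115, 24.15 and 89.22, Egr1 at 486.6, 480.5, 92.73 and 489.8, and Fos at 249.9, 288.3, 26.03 and 142.6, with replicate 3 the lowest for each, as for Ankrd2. In TAC+JP2NT replicate 3 was again the lowest for Egr2 (21.66), Egr1 (167.2) and Fos (15.87), while for Ankrd2 it was replicate 4. In Sham+GFP Egr2 was at 3.70 to 6.67, Egr1 at 411.4 to 494.6 and Fos at 147.9 to 222.8. TAC+GFP thus stood above these shams for Egr2 and overlapped with them for Fos. For Egr1, TAC+GFP replicates 1, 2 and 4 lay within the Sham+GFP range and replicate 3 below it. No sham library reached 10 for Egr2, so like Ankrd2 it passed the filter through the TAC hearts only. Egr1 and Fos were chosen after their values were seen, and these likenesses are a description with no test.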
